A study of Mus musculus with 6 samples.

Results

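The heat shock and unfolded protein response genes were followed in liver RNA-Seq of 6 house mice. The genes were chosen by name, as 36 symbols of molecular chaperones, their partners and the sensors that control them. Earlier results of these data were known at that choice, so the shares of calls below describe the set and do not test it. All 36 were found for every mouse among 47234 gene names used. Of the 36, 16 act in the cytosol and mitochondria and 20 belong to the endoplasmic reticulum (ER) or to the pathways that signal from it. The laboratory group was 3 male C57BL/6 mice, an inbred strain, bought in and aged between 17 and 18 weeks. The wild group was 3 adult mice trapped at 2 sites, of which wild mouse 1 was male and wild mice 2 and 3 were female. The wild mice had been kept for 3 months at ambient temperature and natural light before they were killed, and laboratory mice were killed on arrival, in both cases by cervical dislocation. The labels name no treatment. Per the paper, the RNA came from liver that was sampled before fixation and kept frozen. The formalin-fixed carcasses of the laboratory mice had been archived longer than those of the wild mice. No age in weeks is given for the wild mice. Origin, housing, date of preparation, possibly age and, in part, sex differ together between the groups and cannot be told apart.

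Chaperones hold unfolded proteins and release them to fold, mostly in cycles driven by ATP. Heat, oxidants or misfolded protein in the cytosol free the transcription factor HSF1 from the chaperones that hold it, and HSF1 then binds heat shock elements before genes such as Hspa1a. Misfolded protein in the ER lumen is sensed by IRE1 (encoded by Ern1), PERK and ATF6, which raise ER chaperones, slow translation and send proteins to degradation. Hepatocytes secrete most plasma proteins and so carry a large ER at all times.

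Levels are given as FPKM, fragments scaled to transcript length and to the mapped total, which may be compared between genes. The test was run on the authors' zFPKM, made in each mouse by subtracting the peak (mode) of its log2 FPKM distribution and dividing by a fitted SD. The mode lay between 0.491 and 2.51 on the log2 scale and the SD between 2.51 and 3.12, so 1 unit of zFPKM spans 2.51 to 3.12 log2 units of FPKM. In the laboratory mice the 10 most abundant genes took between 41.1% and 48.4% of all FPKM, against 15.9% to 17.3% in the wild mice. The median gene tested was 1.58-fold higher in FPKM in wild mice and differed by 0.47 as log2(FPKM + 0.1), while its zFPKM difference was -0.0049, so each FPKM ratio below stands beside that 1.58-fold shift. Read counts are not used here and the absolute depth is unknown.

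The promoters of 28 of the 36 genes were found in RefSeq's GRCm38.p6 sequences, taken from 250 bases before to 50 after the start. The ER stress response element, searched as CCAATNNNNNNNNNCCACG on both strands, is the site bound by ATF6 with NF-Y. It was present in 7 of the 28 (25%), against 0.137% of 27025 genes. Because the set was chosen by name for these stress responses, its shares of such elements are background and not a result of these data. The genes were Hspa5, Hsp90b1, Calr, Canx, Pdia6, Dnajc3 and Creld2. Of these 7 genes, 5 (all but Calr and Creld2) were called higher in wild mice, near the share of the whole set, 22 of 36 (61.1%). A part of the element in the calls was not tested. The lines below show each match with its flanks, in the direction of transcription. Capitals mark the element, and 3 of the 8 matches read on the opposite strand.
Hspa5 (chr2:34772020-34772048, + strand): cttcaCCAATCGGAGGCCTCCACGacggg
Hsp90b1, far match (chr10:86705633-86705661, - strand): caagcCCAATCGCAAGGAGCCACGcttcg
Hsp90b1, near match (chr10:86705528-86705556, - strand): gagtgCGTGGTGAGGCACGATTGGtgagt
Canx (chr11:50325795-50325823, - strand): attgaCCAATCACCACGCTCCACGaagaa
Pdia6 (chr12:17266486-17266514, + strand): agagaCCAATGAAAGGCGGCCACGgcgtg
Dnajc3 (chr14:118937822-118937850, + strand): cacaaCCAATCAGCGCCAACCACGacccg
Calr (chr8:84847070-84847098, - strand): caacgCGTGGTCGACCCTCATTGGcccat
Creld2 (chr15:88819515-88819543, + strand): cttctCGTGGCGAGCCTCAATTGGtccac

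The heat shock element, searched as GAANNTTCNNGAA on both strands, was found at 3 of the 28 promoters (10.7%), against 0.662% of genes. Those of Hspd1 and Hspe1 are the same letters, since the mitochondrial chaperonin and its cap are transcribed away from each other from a shared promoter. The match at Hsph1 lies after the start and is not shown. Hspa1a, Hspa1b, Dnajb1 and Hspb1 had a window but no match. The search took only these exact letters within the window, so a missing match does not show that a gene lacks heat shock elements. The ER stress response element II, a shorter site, was found at Dnajb11, after its start, and before Herpud1, against 0.0444% of genes. The XBP1 letters TGACGTGG (0.714% of genes) and the ATF4 letters TGATGNAAT (1.08%) were in none of the 28 windows. Capitals mark the elements in the lines below, where the pair of heat shock matches overlaps.
Hspe1 and Hspd1, shared (chr1:55088054-55088081, + strand): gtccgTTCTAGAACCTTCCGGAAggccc
Herpud1 (chr8:94386372-94386392, + strand): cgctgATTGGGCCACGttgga

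Most of the set was higher in the wild mice. With limma on zFPKM and Benjamini-Hochberg adjustment over 18621 genes tested, 22 of the 36 genes (61.1%) rose in wild mice at an adjusted p under 0.05, against 7.29% of all genes tested. None of the 36 was called lower, against 7.17% of all genes, and none had an unadjusted p under 0.05 in that direction. The median zFPKM difference of the 36, wild minus laboratory, was 0.46. By FPKM, every wild mouse lay above every laboratory mouse for 31 of the 36 genes (86.1%), against 43.7% of all genes tested. By zFPKM the groups were apart in that direction for 21 of the 36 (58.3%), against 14.1% of all genes. For Hsf1, Calr and Atf4, none of them called, every wild mouse lay below every laboratory mouse by zFPKM. On the log2(FPKM + 0.1) scale 31 of the 36 were called higher in wild mice, against 38.0% of all genes.

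**Figure D1:**
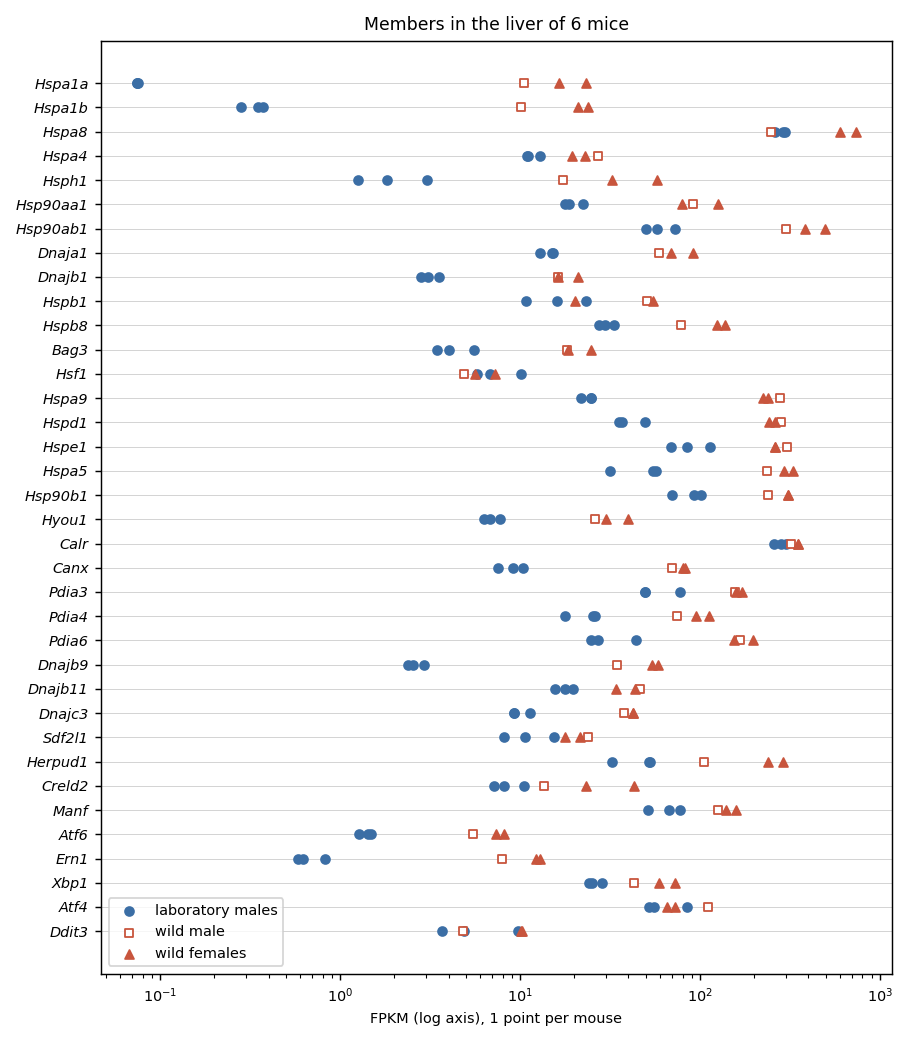
FPKM of each of the 36 genes in each of the 6 mice on a log axis, with circles for laboratory males, an open square for the wild male and triangles for wild females. For 31 genes all wild mice lie to the right of all laboratory mice, and Hspa1a and Hspa1b show the widest gap.

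The inducible cytosolic HSP70 genes, Hspa1a and Hspa1b, had the widest difference of the set. They encode nearly the same stress-induced chaperone from neighbouring single-exon genes on chromosome 17 (Hspa1b at 34956429 to 34959238, Hspa1a at 34969359 to 34972156), and their coding sequences are 99.5% identical, so reads cannot be assigned surely to either. The names are also listed 4 times, on chromosome 17 and on alternate sequences of it, for 5 of the mice but once for laboratory mouse 1, and the sequence of that one entry was used for every mouse. Hspa1a was at 0.0744, 0.0745 and 0.0750 FPKM in the laboratory mice and at 10.6, 16.5 and 23.2 FPKM in the wild mice. Hspa1b was at 0.370, 0.351 and 0.281 FPKM against 10.1, 21.1 and 23.9 FPKM. Laboratory levels were close to none, and the authors' lower bound for Hspa1a was 0 in laboratory mice 2 and 3, so its 225-fold ratio of means is imprecise. The sum of both genes on the sequence used was 0.409 ± 0.046 FPKM (SD, n = 3) in laboratory mice. In wild mice it was 35.1 ± 13.4 FPKM, an 85.9-fold ratio. This sum does not depend on how reads were split between the genes, but it leaves out the other listed copies. Summed over every listed copy instead, it was 2.03 and 1.60 FPKM in laboratory mice 2 and 3 and between 86.2 and 187 FPKM in wild mice. The groups did not overlap, and a two-sided exact permutation test of the log2 sum gave p = 0.1, the smallest that 3 mice against 3 allow. In limma the zFPKM difference was 2.45 ± 0.33 (SE, adjusted p = 7.6e-12) for Hspa1a and 1.74 ± 0.26 (adjusted p = 4.0e-09) for Hspa1b.

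The other cytosolic HSP70 and HSP110 genes did not move alike. Hsph1, an HSP110 that exchanges nucleotide on HSP70, was at 1.25, 1.81 and 3.05 FPKM in laboratory mice and at 17.3, 32.3 and 57.8 FPKM in wild mice. That is a 17.6-fold ratio of means, with no overlap and a zFPKM difference of 1.14 ± 0.19 (adjusted p = 2.5e-07). Hspa8, the constitutive HSP70 that works in every cell, was at 296, 260 and 290 FPKM in laboratory mice and at 249, 602 and 734 FPKM in wild mice. Its wild male lay below every laboratory mouse and both wild females above them, and the zFPKM difference was -0.0067 ± 0.10 (adjusted p = 0.98). Hspa4, another HSP110, was at 12.9 FPKM or less in laboratory mice and at 19.5 to 27.1 FPKM in wild mice and was not called (zFPKM difference 0.10 ± 0.17, adjusted p = 0.77).

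Both cytosolic HSP90 genes were higher in wild mice. HSP90 finishes the folding of kinases and steroid receptors, with Hsp90aa1 as the more inducible form and Hsp90ab1 as the constitutive one. Hsp90ab1 was at 57.9, 73.0 and 49.8 FPKM in laboratory mice and at 300, 384 and 494 FPKM in wild mice, a 6.52-fold ratio of means and a zFPKM difference of 0.68 ± 0.12 (adjusted p = 2.1e-07). Hsp90aa1 was at 17.9, 22.3 and 18.7 FPKM against 91.1, 79.9 and 126 FPKM, 5.04-fold, with a zFPKM difference of 0.56 ± 0.14 (adjusted p = 0.0012). Neither overlapped between the groups, and the constitutive form stayed the more abundant of the pair in all 6 mice.

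The J proteins that deliver clients to cytosolic HSP70 were also both called. Dnaja1, a general J protein, was at 15.0, 15.3 and 12.8 FPKM in laboratory mice and at 58.9, 69.0 and 91.1 FPKM in wild mice (5.08-fold, adjusted p = 0.0022). Dnajb1, the heat-inducible partner of HSP70 in dissolving aggregates, was at 3.55, 2.80 and 3.07 FPKM against 16.2, 16.4 and 20.9 FPKM (5.67-fold, adjusted p = 0.015). The wild male stood with the females for Dnajb1, at 16.2 FPKM.

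Among the small heat shock proteins and their partner, 2 of 3 were called. Bag3, which links HSP70 to selective autophagy, was at 3.46, 4.05 and 5.54 FPKM in laboratory mice and 18.3, 18.6 and 24.7 FPKM in wild mice, 4.72-fold (zFPKM difference 0.53 ± 0.19, adjusted p = 0.036). Hspb8, the small heat shock protein that works with BAG3, was at 27.5, 29.6 and 33.3 FPKM against 78.8, 124 and 138 FPKM, 3.77-fold (adjusted p = 0.027). Hspb1 (HSP27), which holds unfolded proteins without ATP, was at 10.8 to 23.4 FPKM against 20.3 to 54.5 FPKM; the groups overlapped through wild mouse 2 and the adjusted p was 0.41.

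Hsf1, the factor that drives the heat shock response, was the only gene of the 36 with a lower mean FPKM in wild mice. It was at 5.78, 6.77 and 10.1 FPKM in laboratory mice and at 4.88, 5.62 and 7.26 FPKM in wild mice, and these overlap. Its zFPKM was below in every wild mouse, but the difference of -0.37 ± 0.20 was not called (adjusted p = 0.24). With zFPKM or log2 FPKM centred on the median gene of each mouse, or with quantile normalization, it was called lower in wild mice, with adjusted p between 0.0034 and 0.024. These settings also called between 14.4% and 42.4% of all genes tested lower in wild mice. HSF1 is controlled mainly on the protein, and its mRNA is no measure of its activity.

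All 3 mitochondrial chaperones rose. HSPA9 (mortalin) pulls proteins through the inner membrane, and HSPD1 (HSP60) with its cap HSPE1 (HSP10) forms the folding chamber of the matrix. Hspa9 was at 21.7, 24.7 and 24.7 FPKM in laboratory mice and at 279, 239 and 224 FPKM in wild mice, 10.4-fold, with a zFPKM difference of 0.92 ± 0.13 (adjusted p = 5.3e-11). Hspd1 was at 36.7, 49.7 and 35.4 FPKM against 282, 262 and 243 FPKM, 6.47-fold (zFPKM difference 0.69 ± 0.12, adjusted p = 7.4e-07). Hspe1 was at 84.6, 114 and 69.4 FPKM against 304, 262 and 263 FPKM, 3.09-fold (0.33 ± 0.12, adjusted p = 0.034). For all 3 the wild male was the highest of the 6 mice. In laboratory mice Hspe1 exceeded Hspd1 in every animal, while in the wild mice their means, 276 ± 24.3 and 263 ± 19.7 FPKM (SD, n = 3), lay within each other's spread, although they share a promoter. A processed copy, Hspd1-ps3, was listed at 2.75 to 4.13 FPKM in laboratory and 20.3 to 23.7 FPKM in wild mice, so some Hspd1 reads may be counted there or the reverse.

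**Figure D2:**
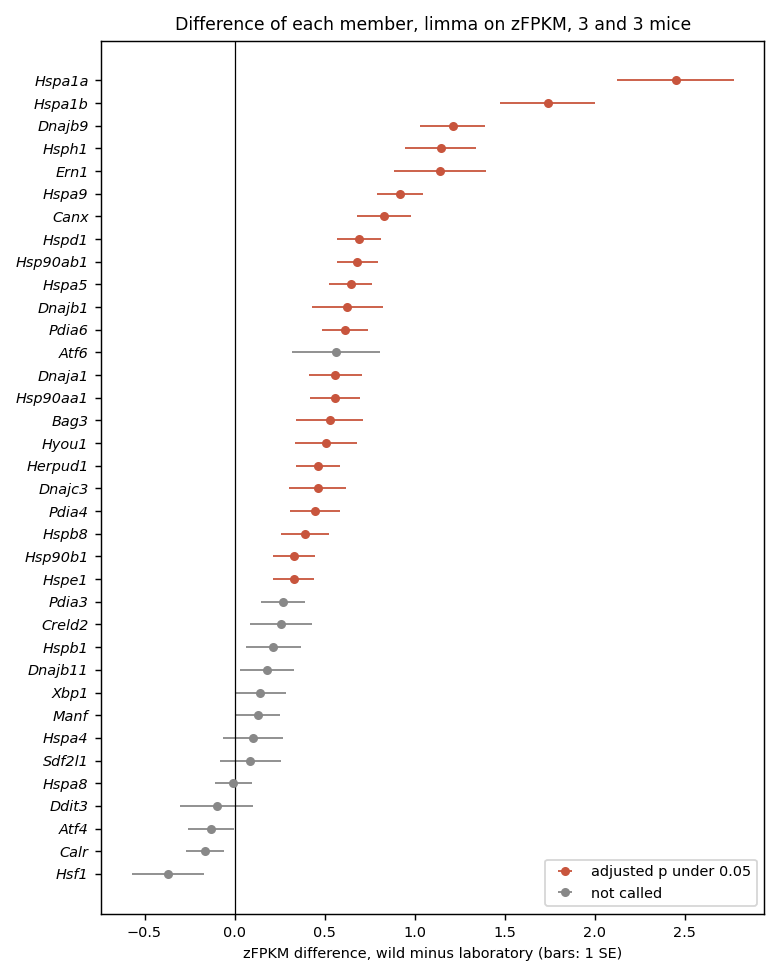
Difference in zFPKM, wild minus laboratory, for each gene with its standard error (limma, 3 and 3 mice), red where the adjusted p is under 0.05. The 22 called genes run from 0.33 for Hspe1 to 2.45 for Hspa1a, and 5 genes lie below 0.

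In the ER, 4 of 5 lumenal chaperones and lectins were called. Hspa5 (BiP), the HSP70 of the ER and the brake on its stress sensors, was at 31.5, 57.2 and 55.2 FPKM in laboratory mice and at 237, 295 and 329 FPKM in wild mice. This was a 5.98-fold ratio without overlap (zFPKM difference 0.64 ± 0.12, adjusted p = 3.3e-06). Hsp90b1 (GRP94), the HSP90 of the ER, was at 69.7, 102 and 92.2 FPKM against 238, 310 and 307 FPKM, 3.24-fold (adjusted p = 0.033). Hyou1, which exchanges nucleotide on BiP, was at 6.26, 6.79 and 7.76 FPKM against 26.1, 30.2 and 39.6 FPKM, 4.61-fold (adjusted p = 0.024).

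The calnexin and calreticulin pair, lectins that hold newly made glycoproteins, parted. Canx, the membrane-bound form, was at 7.49, 10.4 and 9.16 FPKM in laboratory mice and 69.6, 82.1 and 80.8 FPKM in wild mice, 8.60-fold (zFPKM difference 0.83 ± 0.15, adjusted p = 2.2e-06). Calr, the soluble form, was at 257, 299 and 281 FPKM against 322, 349 and 350 FPKM, 1.22-fold, which is below the ratio of the median gene. Its FPKM was higher and its zFPKM lower in every wild mouse, and it was not called (zFPKM difference -0.16 ± 0.11, adjusted p = 0.35). Calr was the more abundant of the pair in all 6 mice. Both promoters hold the ER stress response element shown above.

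Of the protein disulfide isomerases, which form and reshuffle disulfide bonds, 2 of 3 were called. Pdia6 was at 27.1, 44.3 and 24.8 FPKM in laboratory mice and 167, 155 and 197 FPKM in wild mice, 5.40-fold (zFPKM difference 0.61 ± 0.13, adjusted p = 5.0e-05). Pdia4 was at 17.8, 25.5 and 26.0 FPKM against 74.6, 95.6 and 112 FPKM, 4.08-fold (adjusted p = 0.013). Pdia3, which works on glycoproteins bound to calnexin and calreticulin, was at 49.6 to 77.2 FPKM against 157 to 172 FPKM (adjusted p = 0.13). Its FPKM did not overlap and its zFPKM did.

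Of the 3 ER J proteins, Dnajb9 had the largest difference. DNAJB9 (ERdj4) helps BiP to silence IRE1 and is a target of XBP1. Its mRNA was at 2.55, 2.91 and 2.37 FPKM in laboratory mice and at 34.4, 58.8 and 54.4 FPKM in wild mice, 18.9-fold, with a zFPKM difference of 1.21 ± 0.18 (adjusted p = 1.8e-09). Dnajc3 (P58IPK), which restrains PERK and serves BiP, was at 9.30, 11.4 and 9.24 FPKM against 37.9, 42.2 and 42.6 FPKM, 4.09-fold (adjusted p = 0.031). Dnajb11 (ERdj3), a J protein that is also secreted, was at 15.7 to 19.7 FPKM against 34.4 to 46.6 FPKM and was not called (adjusted p = 0.50).

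Of 4 small ER stress-induced proteins, Herpud1 alone was called. HERPUD1 sits in the ER membrane with the degradation machinery. It was at 32.6, 52.0 and 53.0 FPKM in laboratory mice and at 105, 240 and 288 FPKM in wild mice, 4.61-fold (zFPKM difference 0.46 ± 0.12, adjusted p = 0.0027). The wild male lay far below both females, and by zFPKM it lay within the laboratory range. Creld2, an ER isomerase-like factor, was at 7.20 to 10.5 FPKM in laboratory mice and at 13.6, 23.3 and 43.1 FPKM in wild mice (adjusted p = 0.36). Manf, a secreted factor that binds BiP, was at 51.5 to 77.6 FPKM against 126 to 159 FPKM (adjusted p = 0.57). Sdf2l1, part of the ERdj3 complex, was at 8.12 to 15.4 FPKM against 17.7 to 23.8 FPKM (adjusted p = 0.81). All 4 were apart by FPKM, with mean ratios from 1.84-fold to 4.61-fold, against the 1.58-fold of the median gene.

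The sensors and transcription factors of the unfolded protein response were divided. Ern1, the IRE1 kinase and nuclease that splices Xbp1 mRNA, was at 0.584, 0.622 and 0.823 FPKM in laboratory mice and at 7.98, 12.8 and 12.2 FPKM in wild mice. It was 16.3-fold higher without overlap (zFPKM difference 1.14 ± 0.25, adjusted p = 0.00019). Atf6, the sensor that is cut in the Golgi to release a transcription factor, was at 1.27 to 1.48 FPKM against 5.44 to 8.18 FPKM, 5.03-fold. Its zFPKM overlapped through the wild male, and the difference of 0.56 ± 0.25 was not called (adjusted p = 0.11). Xbp1, whose spliced form is the output of IRE1, was at 24.1 to 28.7 FPKM against 43.0 to 72.3 FPKM (2.24-fold, adjusted p = 0.59), and gene-level FPKM does not tell the spliced from the unspliced form. The pair that lies downstream of PERK overlapped between the groups in FPKM. Atf4, the factor translated when initiation is slowed, was at 52.1, 55.8 and 84.8 FPKM in laboratory mice and 111, 72.3 and 65.3 FPKM in wild mice (1.29-fold, adjusted p = 0.57 by limma). By zFPKM Atf4 was lower in every wild mouse than in every laboratory mouse. Ddit3 (CHOP), the factor of prolonged ER stress, was at 4.91, 3.69 and 9.76 FPKM against 4.79, 10.2 and 10.1 FPKM (1.37-fold, adjusted p = 0.82).

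The order of the levels was similar in the groups. In laboratory mice Hspa8 (282 ± 19.4 FPKM, SD, n = 3) and Calr (279 ± 21.0 FPKM) were the most abundant and did not differ beyond their spread. Hspe1, Hsp90b1, Manf, Atf4 and Hsp90ab1 followed, between 89.3 and 60.2 FPKM on average. In wild mice Hspa8 (528 ± 250 FPKM) and Hsp90ab1 (393 ± 97.1 FPKM) led, and Calr, Hspa5, Hsp90b1, Hspe1, Hspd1 and Hspa9 followed between 340 and 247 FPKM. From Hspa5 to Hspa9 neighbours lay within each other's spread, while Calr (340 ± 15.9 FPKM) lay above Hspa5 (287 ± 46.4 FPKM) by more than either SD. Hspa9 moved from rank 15 to rank 8 and Dnajb9 from rank 31 to rank 20. Hsf1 went from rank 26 to rank 36, the lowest, while Hspa1a was lowest in laboratory mice. Spearman's rho between the group means was 0.892 across the 36 genes, which are not independent. Together the 36 genes took between 0.199% and 0.235% of all FPKM in laboratory mice and between 0.646% and 0.907% in wild mice.

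**Figure D3:**
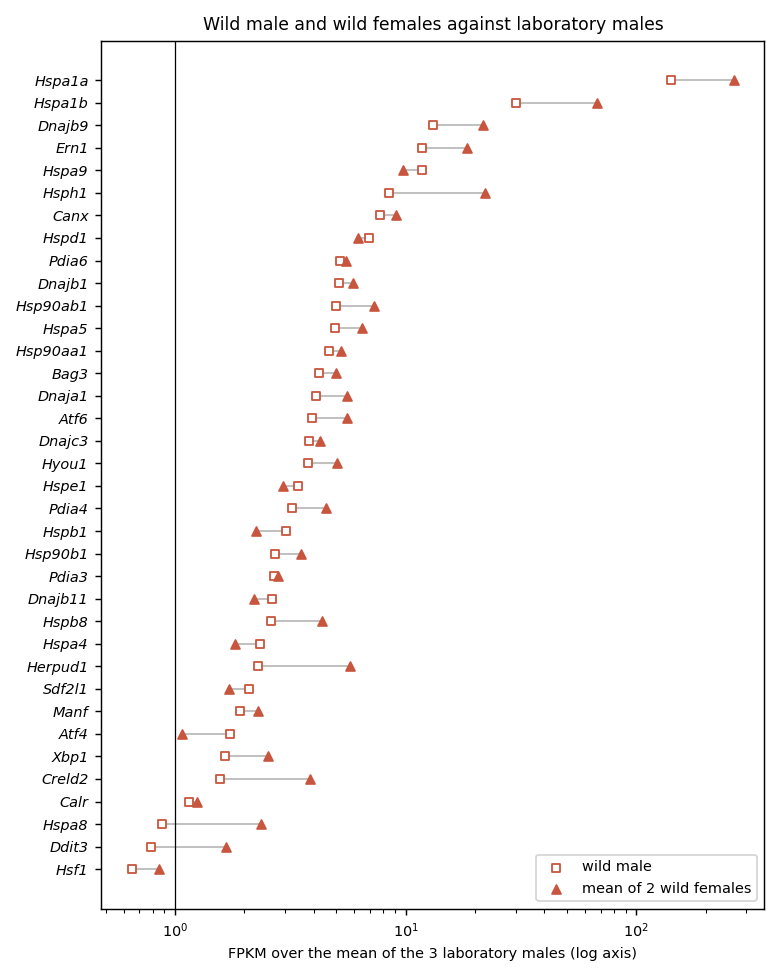
FPKM of the wild male (open squares) and the mean of the 2 wild females (triangles) over the mean of the 3 laboratory males, on a log axis. The wild male lies above 1 for 33 genes and below it for Hspa8, Ddit3 and Hsf1.

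The wild male alone can be set against the 3 laboratory males without a difference in sex. Its FPKM exceeded that of every laboratory mouse for 33 of the 36 genes (91.7%), against 51.7% of all genes tested, and its zFPKM did so for 21 (58.3%), against 15.0%. It was 142-fold above the laboratory mean for Hspa1a, 30.2-fold for Hspa1b, 13.2-fold for Dnajb9, 11.8-fold for Hspa9 and for Ern1, and 8.51-fold for Hsph1. Both females lay above the wild male in FPKM for 26 of the 36 (72.2%), against 42.6% of all genes. By zFPKM this held for 34 of 36, against 83.1% of all genes. The females' mean over the male was 2.68 for Hspa8, 2.60 for Hsph1, 2.51 for Herpud1, 2.45 for Creld2, 2.23 for Hspa1b and 2.12 for Ddit3. It was under 1 for the mitochondrial chaperones, at 0.830 for Hspa9, 0.895 for Hspd1 and 0.862 for Hspe1. With sex as a covariate in limma, which leaves the wild male to carry the difference of origin, 5 of the 36 remained called (Hspa1a, Hspa1b, Hspa9, Hspd1 and Dnajb9), against 1.35% of all genes called higher. With the 4 males only, limma called none of the 36 and none of all 18621 genes. At an unadjusted p under 0.05, 7 of the 36 were higher in the wild male and 3 lower, among 3121 of all genes in either direction.

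**Figure D4:**
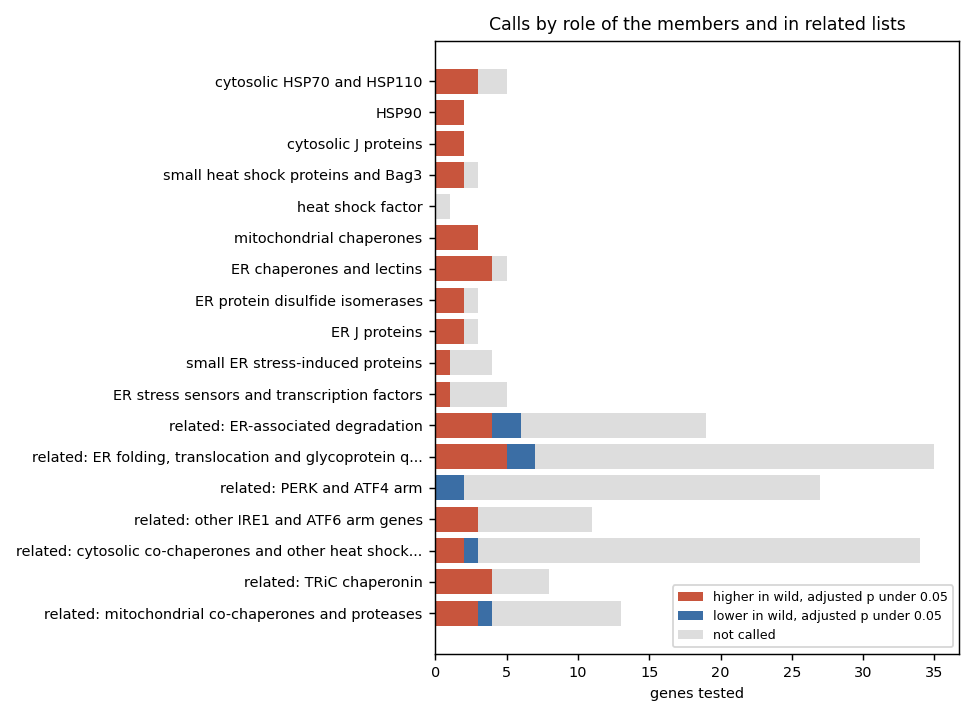
Genes called higher in wild mice (red), lower (blue) and not called (grey) in each role of the 36 genes and in 7 lists of related genes (limma on zFPKM, adjusted p under 0.05). All HSP90, cytosolic J protein and mitochondrial chaperone members are red, and the list of the PERK and ATF4 arm has no red on this scale.

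Other genes of the same pathways were counted in 7 lists, 147 genes in all. Of these, 21 (14.3%) were called higher and 8 (5.44%) lower in wild mice, against 7.29% and 7.17% of all genes tested, and their median zFPKM difference was 0.18, against -0.0049 over all genes tested. In the TRiC chaperonin, the ring that folds actin and tubulin, 4 of 8 subunits were higher and none was lower by limma or at an unadjusted p under 0.05 (median zFPKM difference 0.39). Cct5 was at 12.1 to 14.1 FPKM in laboratory mice and 75.8 to 78.6 FPKM in wild mice, and Cct4 at 7.98 to 12.1 FPKM against 50.5 to 59.3 FPKM. Of 13 mitochondrial co-chaperones and proteases, 3 (23.1%) were higher and 1 (7.69%) lower. Clpx, the unfoldase of the matrix protease, rose from 8.46, 16.6 and 13.3 FPKM to 123, 130 and 92.5 FPKM. Its protease partner Clpp fell, from 60.0 to 69.3 FPKM in laboratory mice to 39.3 to 50.2 FPKM in wild mice (zFPKM difference -0.44). Grpel1, which exchanges nucleotide on HSPA9, was at 4.78 to 10.3 FPKM against 36.7 to 41.3 FPKM.

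Of 34 cytosolic co-chaperones and other heat shock genes, 2 (5.88%) were higher and 1 (2.94%) lower, both shares below those of all genes tested, with a median zFPKM difference of 0.13. The higher ones were St13, which holds HSP70 to its client, at 14.8 to 16.9 FPKM against 68.7 to 96.3 FPKM, and Cdc37, which brings kinases to HSP90, at 9.42 to 10.9 FPKM against 48.8 to 51.4 FPKM. Hspb6, a small heat shock protein of muscle, fell from 14.3 to 15.0 FPKM in laboratory mice to 6.79 to 7.93 FPKM in wild mice.

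In the ER lists, 5 of 35 folding and translocation genes (14.3%) were higher and 2 (5.71%) lower. Spcs1, a signal peptidase subunit, was at 1.54 to 4.37 FPKM in laboratory mice and 53.6 to 59.7 FPKM in wild mice, and Sdf4 at 5.31 to 6.43 FPKM against 52.3 to 67.2 FPKM. Fkbp2, a prolyl isomerase, fell from 224 to 233 FPKM to 107 to 111 FPKM, and Sec62, part of the translocon, from 62.6 to 72.0 FPKM to 39.3 to 45.5 FPKM. Of 19 genes of ER-associated degradation, 4 (21.1%) were higher and 2 (10.5%) lower. Ube2g2, a ubiquitin-conjugating enzyme, was at 2.81 FPKM or less in laboratory mice and up to 26.3 FPKM in wild mice (zFPKM difference 0.88), and Selenos at 5.98 to 8.67 FPKM against 30.2 to 51.4 FPKM. Derl3 fell from 1.81 to 5.30 FPKM to 0.245 to 0.858 FPKM, and Edem2 from 35.7 to 46.0 FPKM to 22.0 to 26.5 FPKM. Of 11 further IRE1 and ATF6 genes 3 (27.3%) were higher, with Rtcb, the ligase that joins spliced Xbp1, at 3.79 to 5.43 FPKM against 31.3 to 35.8 FPKM, and Creb3l2 at 0.572 to 0.789 FPKM against 2.93 to 7.98 FPKM.

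The PERK and ATF4 arm had no gene called higher by limma on zFPKM among 27 tested, and 2 (7.41%) called lower. At an unadjusted p under 0.05, 3 were higher and 5 lower, but on log2(FPKM + 0.1) 14 of the 27 were called higher, where 38.0% of all genes were. Asns and Nupr1, both targets of ATF4, were lower in wild mice. Asns, asparagine synthetase, was at 0.684, 0.904 and 2.58 FPKM in laboratory mice and at 0.168, 0.137 and 0.0698 FPKM in wild mice (zFPKM difference -1.41 ± 0.41, adjusted p = 0.0071). Nupr1 was at 7.16, 6.25 and 11.6 FPKM against 1.20, 0.583 and 2.12 FPKM (-1.22 ± 0.24, adjusted p = 2.0e-05). Eif2ak3, which encodes PERK itself, was at 0.830 to 1.61 FPKM against 3.09 to 6.09 FPKM and was not called (adjusted p = 0.27). The median zFPKM difference of the list was 0.083.

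Genes that mark temperature, handling or time of day were read beside these results. Of the cold-inducible RNA-binding proteins neither was called by limma on zFPKM or had an unadjusted p under 0.05 there, and 1 was called higher on log2(FPKM + 0.1). Rbm3 was at 6.54 to 13.9 FPKM in laboratory mice and 19.6 to 41.4 FPKM in wild mice (adjusted p = 0.22), and Cirbp overlapped. None of 15 immediate early genes was called by limma on zFPKM or had an unadjusted p under 0.05 there, and 2 were called higher on log2(FPKM + 0.1); as for much of the set, both wild females lay above the wild male in FPKM for 13 of the 15. Among 18 clock genes, Arntl and Bhlhe40 were higher and Dbp, a clock output gene, was called lower, although wild mouse 3, at 22.3 FPKM, lay above every laboratory mouse and the other 2 wild mice were at 0.644 and 0.867 FPKM. The part of sampling time or handling in the chaperone differences was not tested.

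The tissue label was checked by markers, and in bulk tissue fewer cells of a type and less RNA per cell cannot be told apart. Summed FPKM of 8 hepatocyte markers was 29384 to 40537 in laboratory and 26461 to 27629 in wild mice, with 4 higher and 3 lower. Of 7 erythrocyte markers 6 were lower in wild mice (summed FPKM 1340 to 5135 against 724 to 1581). Of 7 neutrophil markers listed, 2 of the 3 tested were lower (7.02 to 12.9 against 1.88 to 2.65), and Ly6g was at 0 in all mice. Of 6 biliary markers 1 was lower (35.3 to 71.5 against 18.3 to 32.8), and of 8 stellate cell markers 2 were lower and 1 higher (38.5 to 58.3 against 84.8 to 151). Of 7 B and plasma cell markers tested, 2 were lower and 1 higher (4.36 to 5.82 against 2.97 to 22.9). No marker of Kupffer cells (63.5 to 102 against 30.8 to 240), sinusoidal endothelium (30.4 to 47.6 against 27.6 to 85.0), T cells (1.98 to 2.99 against 1.98 to 4.98) or acinar pancreas (5.21 to 9.84 against 3.24 to 19.0) was called by limma; at an unadjusted p under 0.05, 1 Kupffer cell and 1 endothelial marker were lower, and on log2(FPKM + 0.1) 1 T cell marker was called higher. Cela3b, Cpb1, Prss2, Try4 and Try5 of the 12 acinar markers were at 0 in all mice. Both wild females lay above the wild male in FPKM for 8 of 8 Kupffer cell and 8 of 8 endothelial markers, as for 26 of the 36 chaperone genes. The part of these cells in the chaperone differences was not tested.

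**Figure D5:**
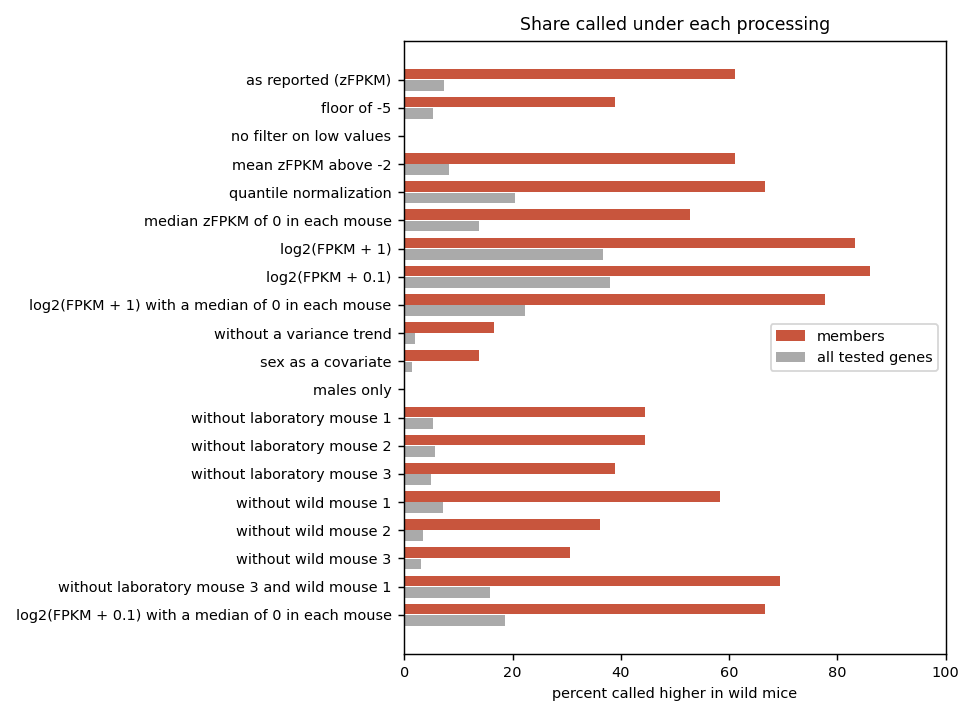
Share of the 36 genes (red) and of all genes tested (grey) called higher in wild mice under each way of processing, in percent. The red bar is the longer wherever any of the 36 was called, and both are at or near 0 without a filter on low values and with males only.

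How many of the set were called depended on the scale, on single mice and on the trend of variance with level that limma fits over all genes. Without that trend 6 of the 22 stayed called, and 1.91% of all genes were called higher, against 7.29% with it. Leaving out laboratory mouse 3 left 14 of the 22, wild mouse 2 left 13 and wild mouse 3 left 11. The share of all genes called higher fell as well, to 4.91%, 3.43% and 3.04% in that order. The 11 genes called whichever mouse was left out were Hspa1a, Hspa1b, Hsph1, Hsp90ab1, Hspa9, Hspd1, Hspa5, Canx, Pdia6, Dnajb9 and Ern1. Without laboratory mouse 3 and wild mouse 1, whose fitted modes stood apart from the rest of their groups, 25 were called higher and 1 (Hsf1) lower. Of all genes, 15.9% were called higher and 14.6% lower there. With the median gene of each mouse at 0, 19 were called higher on zFPKM and 28 on log2(FPKM + 1), and Hsf1 was called lower on both. Of all genes, 13.9% and 22.3% were called higher on these scales and 14.4% and 42.4% lower. For all tested genes the split also moved, from 1357 higher and 1335 lower on zFPKM to 6861 higher and 1384 lower on log2(FPKM + 1), and to 4156 higher and 7893 lower with the median gene at 0. The direction of all 22 called genes was the same under all 19 alternatives. Those that changed only the floor, the filter on low values or the variance trend left the 22 differences as they were. A direction could not change under them. The sex covariate and males only gave the same differences as each other, so they are not separate checks.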

How the data were processed

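Liver RNA-Seq of 6 mice, once each, was used. Per the labels and methods, the authors aligned single reads of 100 bases from stranded mRNA libraries to a masked GRCm38.p6 genome with kalign, computed FPKM with the Tuxedo pipeline and deposited FPKM (with Cufflinks' bounds for 5 mice) and zFPKM, a score made from log2 FPKM. FPKM is not a count, so no count test was run. Names listed once per mouse were joined; 24 with a failed estimate, none a member, were left out, and failures are not marked for laboratory mouse 1. The test took genes whose zFPKM passed -3 in 3 or more mice, and lower values were set to -3. limma 3.58.1 (R 4.3.3, lmFit, then eBayes with trend) gave the group difference, with Benjamini-Hochberg adjustment over all tested genes. A run on simulated data used independent noise and a zFPKM shift larger than the difference of every called member but Hspa1a. It therefore does not show how the fit performs for smaller differences in these mice. Summaries used Python 3.11.15 and pandas 2.3.3. Every member is named; of a related list, at most 2 called genes a direction, by size. The members and lists were chosen with earlier results of these data known. The labels number no replicates. In the main fit the variance trend set each SE almost wholly from all genes at a similar level. Its p-values therefore do not measure a gene's own spread between these mice. Herpud1, for example, had a zFPKM SD of 0.35 in the wild mice but an SE of 0.12 for its difference.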

Additional observations from a re-analysis of the deposited data

How the results depend on the processing

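Counts of the 36 genes called higher and lower in wild mice were 22 and 0 as reported. A floor of -5 gave 14 and 0, limma without a variance trend 6 and 0, sex as a covariate 5 and 0 (median difference 0.25), males only, which leaves 1 wild mouse, 0 and 0 (0.25), and no filter on low values 0 and 0. The last gave 19 higher and 2 lower at an unadjusted p under 0.05. For all genes these settings called 1964, 798, 1376, 0 and 23 genes, against 2692 as reported, and for the related and context lists 24, 3, 12, 0 and 0, against 32. With sex as a covariate and with males only, the median difference over all genes also fell, to -0.275, against -0.0049 as reported.

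Quantile normalization called 24 higher and 1 lower of the 36, 7281 of all genes and 92 of the lists. A zFPKM median of 0 in each mouse gave 19 higher and 1 lower, 5273 and 52. Log2(FPKM + 1) gave 30 higher, 8245 and 117 with a median of the 36 of 1.96, and log2(FPKM + 0.1) 31 higher, 8592 and 117 with 2.07. With the median gene at 0 these became 28 higher, 1 lower, 12049, 116 and 1.51, and 24 higher, 1 lower, 8818, 94 and 1.33; the last, and every alternative for the lists, was chosen after seeing the data. Without laboratory mouse 3 and wild mouse 1, 25 were higher and 1 lower, with 5679 and 81. The summed Hspa1a and Hspa1b difference of 6.35 on the log2 scale was 4.15 with a pseudocount of 1 and the median gene at 0.

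Leaving out each mouse gave 11 to 21 of the 36 higher and 0 lower, a median difference of 0.36 to 0.59, 1422 to 2560 genes in all, 13 to 31 of the lists, and 6.10 to 6.69 for Hspa1a and Hspa1b. The range was -0.14 to 0.19 for Hspa8, -0.040 to 0.21 for Hspa4, -0.0035 to 0.35 for Hspb1, -0.12 to 0.22 for Sdf2l1 and -0.24 to 0.13 for Ddit3.

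Sign changes came to 30, all in 10 of the 14 genes not called. Hspa8 turned positive with quantile normalization (0.092), log2(FPKM + 1) (0.76), log2(FPKM + 0.1) (0.77), either with the median gene at 0 (0.31 and 0.024), without laboratory mouse 1 (0.023), without wild mouse 1 (0.19) and without laboratory mouse 3 and wild mouse 1 (0.18). Calr, Atf4 and Ddit3 turned positive on log2(FPKM + 1) (0.29, 0.36 and 0.43) and log2(FPKM + 0.1) (0.29, 0.36 and 0.49), and Ddit3 without wild mouse 1 (0.13) and without it and laboratory mouse 3 (0.13). Hspa4, Hspb1 and Sdf2l1 turned negative without laboratory mouse 3 (-0.040, -0.0035 and -0.12) and without it and wild mouse 1 (-0.00067, -0.0014 and -0.071). With sex as a covariate and with males only, Sdf2l1 (-0.011), Creld2 (-0.20), Manf (-0.026) and Xbp1 (-0.13) turned negative. The median over all genes was -0.275 in both of these fits. The causes were not tested.

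No paired analysis was possible because the laboratory and wild mice are different animals without pairs. Sex and origin overlap in 1 wild male, and read depth is unknown. In the males-only fit the lone wild mouse borrows its spread from the other mice.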
